A study of Homo sapiens with 6 samples.

Results

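A set of 10 genes of the cell-cell junction was followed in A549 cells, an established human lung adenocarcinoma line, when S100A4 was knocked down. They are the classical cadherins CDH1, CDH2 and CDH3, the catenins CTNNA1, CTNNB1, CTNND1 and JUP, and the desmosome genes DSP, PKP2 and DSG2. The members were taken by the gene symbol that the deposited workbook pairs with each transcript cluster (the probes of 1 transcribed locus), and all 10 were found, with 1 cluster each, among 25141 measured genes. Per the labels, the S100A4 shRNA group (3 arrays) is A549 stably carrying a lentiviral shRNA that targets S100A4, and the control shRNA group (3 arrays) is A549 stably carrying a lentiviral control shRNA. Both were grown in DMEM/F12 with fetal bovine serum and harvested before confluence. Each group is 1 stable line with 1 shRNA, so the p-values cover the spread between replicate arrays and not that between shRNAs or independently made lines. The series asks which molecules act downstream of S100A4, a small calcium-binding protein linked to metastasis, in mitochondrial metabolism and invasion.

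Classical cadherins are single-pass membrane proteins that bind the same or a like cadherin on the neighbouring cell and hold catenins at their cytoplasmic tail. Beta-catenin (CTNNB1) or plakoglobin (JUP) binds the tail and recruits alpha-catenin (CTNNA1), which couples the complex to actin, while p120-catenin (CTNND1) binds nearer the membrane and keeps cadherins at the cell surface. Desmosomes are a second junction, in which desmosomal cadherins such as DSG2 are tied through JUP, plakophilins such as PKP2 and desmoplakin (DSP) to keratin filaments. In epithelial-mesenchymal transition, E-cadherin (CDH1) is often lost and N-cadherin (CDH2) gained, a change known as cadherin switching.

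Of the 10 genes, 4 rose with S100A4 shRNA (CDH1, JUP, CDH2 and DSG2), 1 fell (PKP2) and 5 did not pass the test (limma adjusted p under 0.05 over all genes). Among all 25141 genes 11.6% were called, 6.08% higher and 5.49% lower. Among the upper 50% of genes by mean signal, in which 9 of the 10 members lie, 20.4% were called. The 2 groups of arrays did not overlap for 7 of the 10 members, against 32.8% of all genes. Before adjustment, limma gave p under 0.05 for 6 members, against 26.4% of all genes, and the authors' deposited p did so for 5 members, against 29.4%. After adjustment of the authors' deposited p over all genes, 1 member (CDH3, lower) passed, against 2.12% of all genes. The median log2 fold (S100A4 shRNA over control shRNA) of the 10 was 0.11, and that of all genes was -0.034. With 3 arrays against 3, the exact two-sided permutation test of a single gene cannot go below p = 0.1, the value it gave for each of those 7.

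**Figure D1:**
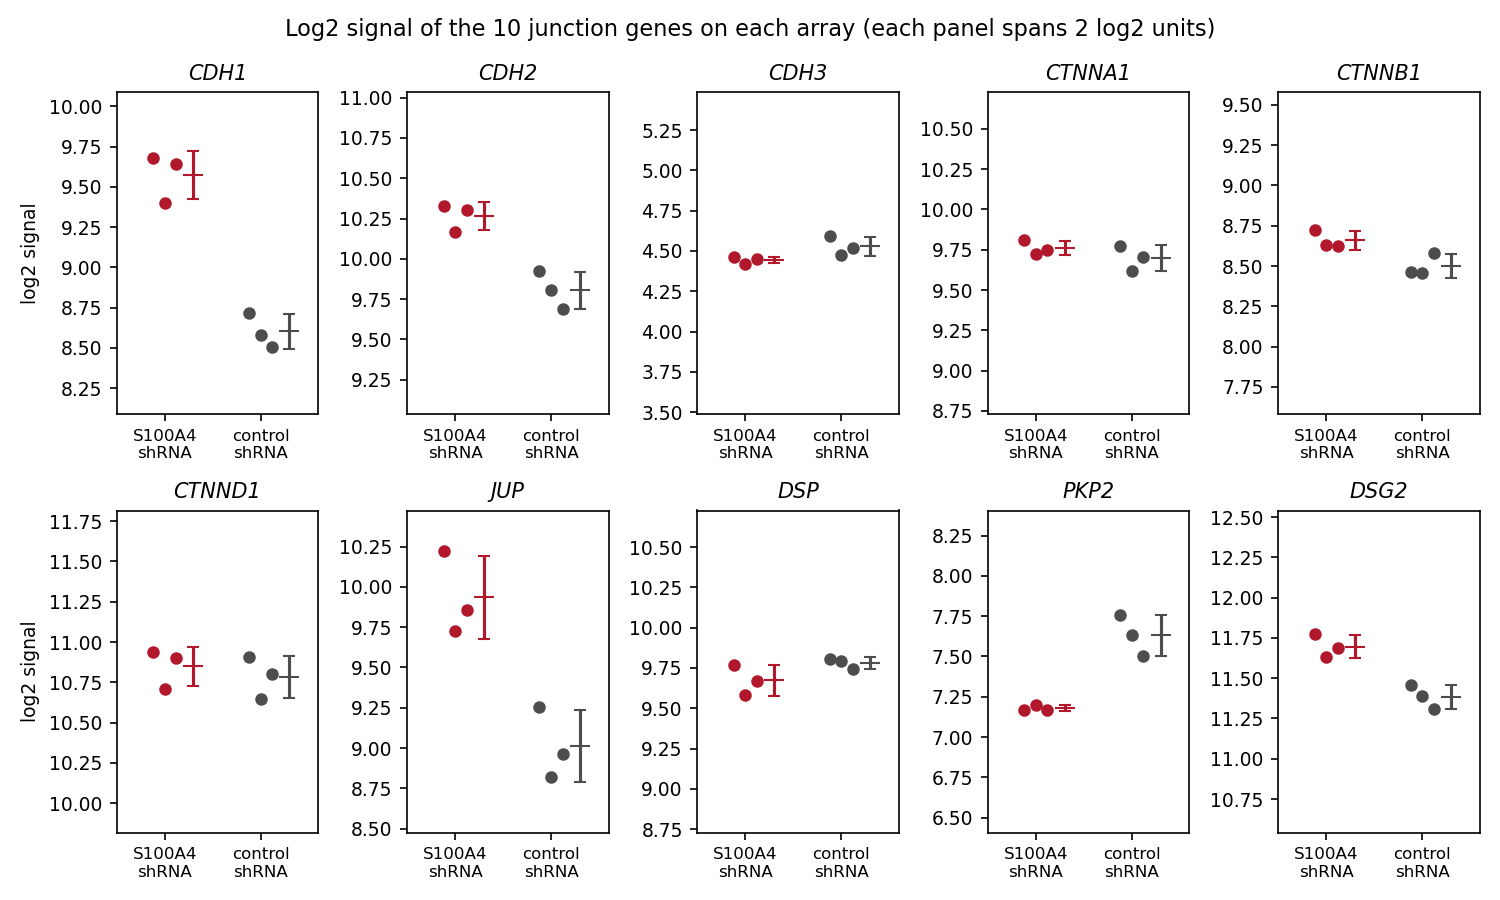
Log2 signal (vertical axis) of each of the 10 genes on the 3 S100A4 shRNA arrays (left, red) and the 3 control shRNA arrays (right, grey), with the group mean and SD beside the points. Each panel spans 2 log2 units; CDH1 and JUP show the widest gaps between groups, at 0.68 and 0.47, and PKP2 is the called gene that lies lower with S100A4 shRNA.

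The promoters that the RefSeq tables give for 6 of the 10 genes were searched for CACCTG and its reverse complement CAGGTG, the E-box words to which Snail and ZEB repressors of epithelial genes are known to bind. Both strands are covered by the pair, which cannot overlap each other. Of 11 windows of 300 bases (250 before and 50 after a transcript start, GRCh38.p14), 3 held the words, 1 each of JUP, DSP and DSG2, and 20.6% of all 35116 such windows did. The windows below are shown because they belong to 3 genes that rose and to 1, DSP, that was not called. They are written 5′ to 3′ with the words in capitals, and the CDH2 window printed, 1 of its 2, has none.

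JUP, chr17:41785927-41786226, minus strand: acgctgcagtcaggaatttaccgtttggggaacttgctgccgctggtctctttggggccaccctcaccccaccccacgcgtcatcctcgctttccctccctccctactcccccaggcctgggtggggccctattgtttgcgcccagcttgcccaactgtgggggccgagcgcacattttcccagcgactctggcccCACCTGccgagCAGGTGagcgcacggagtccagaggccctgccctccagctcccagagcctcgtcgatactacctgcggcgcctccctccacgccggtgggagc

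DSG2, chr18:31497927-31498226, plus strand: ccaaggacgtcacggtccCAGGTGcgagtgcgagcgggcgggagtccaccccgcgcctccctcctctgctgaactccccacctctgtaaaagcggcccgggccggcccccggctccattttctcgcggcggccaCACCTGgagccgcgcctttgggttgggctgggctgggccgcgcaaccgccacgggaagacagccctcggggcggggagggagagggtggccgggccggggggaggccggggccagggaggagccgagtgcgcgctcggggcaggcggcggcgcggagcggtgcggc

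DSP, chr6:7541421-7541720, plus strand: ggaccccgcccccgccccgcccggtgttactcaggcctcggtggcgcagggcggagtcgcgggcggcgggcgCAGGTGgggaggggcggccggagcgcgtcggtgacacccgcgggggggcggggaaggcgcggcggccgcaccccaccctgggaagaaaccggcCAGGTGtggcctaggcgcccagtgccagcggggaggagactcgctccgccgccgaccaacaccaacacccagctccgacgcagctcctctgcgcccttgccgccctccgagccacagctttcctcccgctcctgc

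CDH2, chr18:28177081-28177380, minus strand: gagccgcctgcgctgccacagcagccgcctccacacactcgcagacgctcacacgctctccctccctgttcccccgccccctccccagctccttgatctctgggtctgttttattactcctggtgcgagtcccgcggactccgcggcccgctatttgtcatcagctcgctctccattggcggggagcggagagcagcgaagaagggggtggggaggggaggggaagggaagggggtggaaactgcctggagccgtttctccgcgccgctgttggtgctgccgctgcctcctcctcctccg

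In the JUP window the words began 54 and 43 bases before the start, in the DSG2 window 232 and 116 bases before it, and in the DSP window 178 and 85 bases before it. The other 8 windows held neither word: both of CDH2, the other window of JUP, the 1 of CTNNB1 and the 4 of CTNNA1. No window was searched for CDH1, CDH3, CTNND1 or PKP2. The words thus stood in a window of 2 genes that rose (JUP, DSG2) and of 1 that was not called (DSP). They were absent from the windows of CDH2, which rose, and of CTNNB1 and CTNNA1, which were not called. The share of 20.6% is per window and not per gene. A match is a description of the sequence and not a measured binding site.

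The target S100A4 had log2 signals of 5.74, 5.51 and 5.44 on the S100A4 shRNA arrays, against 7.57, 7.12 and 7.18 on the control shRNA arrays, so the arrays went with their labels. Replicate arrays within a group had Pearson r of 0.9966 to 0.9978 over the genes. The array's positive housekeeping control probe sets had medians between 13.18 and 13.43 on the S100A4 shRNA arrays and between 13.50 and 13.61 on the control shRNA arrays, a difference of -0.23. When each array was centred on these controls, the median log2 fold of all genes became 0.19 and 93.9% of the called genes were higher, against 52.5% as deposited. Levels below are therefore relative to the deposited scale, and beside the members whose direction or call this centring changed the value is given. The part of this difference in the results was not tested.

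CDH1, E-cadherin, the cadherin that defines epithelial adherens junctions, rose by a log2 fold of 0.97. Its log2 signals were 9.68, 9.40 and 9.64 on the S100A4 shRNA arrays, against 8.72, 8.58 and 8.51 on the control shRNA arrays. Every S100A4 shRNA array lay above every control shRNA array, with a gap of 0.68 between the nearest arrays, against SDs of 0.15 with S100A4 shRNA and 0.11 with control shRNA (n = 3 each). The fold was 1.96 (95% interval 1.68 to 2.28, SE 0.094 on the log2 scale, limma adjusted p = 0.0011). In RNA from a whole culture, more cells with the transcript and more transcript per cell cannot be told apart. For CDH1 the authors' deposited table gave a ratio (S100A4 shRNA over control shRNA) of 1.42, with an unadjusted p of 0.00128 and an adjusted p of 0.0519 over the same genes.

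CDH2, N-cadherin, the cadherin of neural and mesenchymal cells, rose too, by less. It read 10.33, 10.17 and 10.30 on the S100A4 shRNA arrays, against 9.92, 9.80 and 9.69 on the control shRNA arrays, with no overlap. Its log2 fold was 0.46 (SE 0.081), a fold of 1.38 (95% interval 1.21 to 1.57, limma adjusted p = 0.011). E-cadherin and N-cadherin therefore moved the same way. The log2 fold of CDH1 was larger than that of CDH2 by 0.51 (SE 0.040), and the within-array differences of the 2 genes did not overlap between groups. The exact permutation p was 0.1, the smallest possible, and 0.1 after adjustment over the 4 pairs of members compared in this way, which were picked after their values were seen. The call of CDH2 was lost when all transcript clusters, named or not, were tested in 1 fit (adjusted p = 0.0527), and in the authors' deposited table (ratio 1.25, adjusted p = 0.0753).

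CDH3, P-cadherin, a cadherin of basal epithelia, had log2 signals of 4.46, 4.42 and 4.45 with S100A4 shRNA, against 4.59, 4.47 and 4.52 with control shRNA. The array's negative control probe sets had medians between 4.18 and 4.27 and 95th percentiles between 7.13 and 7.36 over the 6 arrays, so CDH3 lay just above the median of these controls and below their 95th percentile on every array. The negative control medians lay between 4.18 and 4.19 on the S100A4 shRNA arrays and between 4.23 and 4.27 on the control shRNA arrays. The difference was -0.064, and its part in the log2 fold of CDH3 and of other low signals was not tested. CDH3 was not called (log2 fold -0.085, SE 0.059, limma adjusted p = 0.415). After centring on the positive controls its log2 fold was 0.14, and the authors' deposited table put it at -0.24, with an adjusted p of 0.04 over the same genes. CDH3 is the measured gene next to CDH1 on chromosome 16, both in band 16q22.1 per the workbook. The pair of CDH1 and CDH3 was among the 4 compared, and its difference is not read here because CDH3 lay below that percentile.

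Among the catenins, JUP rose and the other 3 were not called. JUP, plakoglobin, is the catenin that serves both adherens junctions and desmosomes. It had log2 signals of 10.22, 9.73 and 9.86 with S100A4 shRNA, against 9.26, 8.82 and 8.96 with control shRNA. The groups did not overlap, and replicate 1 was the highest of its group in both. JUP also had the largest SD of the 10 members in each group, 0.26 with S100A4 shRNA and 0.22 with control shRNA (n = 3 each). Its log2 fold was 0.92 (SE 0.15), a fold of 1.90 (95% interval 1.48 to 2.43, limma adjusted p = 0.00873). The ratio for JUP in the authors' deposited table was smaller, 1.28, with an adjusted p of 0.0975.

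CTNNB1, beta-catenin, the close relative of JUP that also acts in Wnt signalling, read 8.73, 8.63 and 8.62 on the S100A4 shRNA arrays, against 8.46, 8.46 and 8.58 on the control shRNA arrays. The groups were apart by only 0.040, less than the SD within either group. Its log2 fold was 0.16 (SE 0.066), a fold of 1.12 with a 95% interval of 1.00 to 1.24, and it was not called (limma adjusted p = 0.173). Centring on the positive controls made it a call, at a log2 fold of 0.39 (adjusted p = 0.0323), with the median of all genes at 0.19. The log2 fold of JUP exceeded that of CTNNB1 by 0.76 (SE 0.18), and the within-array differences of the pair did not overlap between groups (exact permutation p = 0.1, the smallest possible).

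CTNNA1, alpha-catenin, the actin-binding link of the complex, had log2 signals of 9.81, 9.73 and 9.75 with S100A4 shRNA, against 9.77, 9.62 and 9.70 with control shRNA. The groups overlapped, and the fold of 1.05 had a 95% interval of 0.94 to 1.16 (limma adjusted p = 0.587). CTNND1, p120-catenin, read 10.94, 10.71 and 10.90 with S100A4 shRNA, against 10.90, 10.64 and 10.80 with control shRNA. Here too the groups overlapped, and the fold of 1.05 had a 95% interval of 0.903 to 1.22 (limma adjusted p = 0.689). The intervals of both genes leave out the 1.96-fold and 1.90-fold estimates of CDH1 and JUP.

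The desmosome genes moved in different directions. DSG2, the desmosomal cadherin of simple epithelia, rose, with log2 signals of 11.77, 11.63 and 11.69 with S100A4 shRNA, against 11.46, 11.39 and 11.31 with control shRNA. The groups did not overlap, but the gap between the nearest arrays was 0.17. The log2 fold was 0.31 (SE 0.069), a fold of 1.24 (95% interval 1.11 to 1.38, limma adjusted p = 0.0268). The call of DSG2 was the weakest of the 5: leaving out 1 array ended it for S100A4 shRNA replicate 1 (adjusted p = 0.0886), S100A4 shRNA replicate 3 (0.0781), control replicate 2 (0.0768) or control replicate 3 (0.105), and so did testing all transcript clusters in 1 fit (0.11). In the authors' deposited table the ratio for DSG2 was 1.25, close to the fold here, with an adjusted p of 0.0838.

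PKP2, the plakophilin of simple epithelia and heart, fell. It read 7.17, 7.20 and 7.16 with S100A4 shRNA, against 7.76, 7.63 and 7.51 with control shRNA, and the groups did not overlap. The SD was 0.019 over the 3 S100A4 shRNA arrays and 0.13 over the 3 control arrays. Its log2 fold was -0.45 (SE 0.076), which is 1.37-fold lower (limma adjusted p = 0.00908). PKP2 was above the 95th percentile of the negative controls on 1 of the 3 S100A4 shRNA arrays and on all 3 control arrays. Its call was lost after centring on the positive controls (log2 fold -0.23, adjusted p = 0.154, with the median of all genes at 0.19) and in the authors' deposited table (ratio 0.89, adjusted p = 0.223). The log2 folds of DSG2 and PKP2 differed by 0.76 (SE 0.059). The groups lay apart in opposite directions for DSG2 and PKP2, so the within-array differences of this pair had to lie apart too. Its exact permutation p of 0.1, the smallest possible, was thus fixed in advance and is not read here.

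DSP, desmoplakin, which ties the desmosome to keratins, had log2 signals of 9.77, 9.58 and 9.67 with S100A4 shRNA, against 9.81, 9.79 and 9.74 with control shRNA. The groups overlapped. DSP did not pass the test (log2 fold -0.11; SE 0.068, limma adjusted p = 0.366), and its fold of 0.928 had a 95% interval of 0.831 to 1.04. Its sign turned on other scales, with a log2 fold of 0.12 after centring on the positive controls and a log2 difference of 0.086 in the authors' deposited table.

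**Figure D2:**
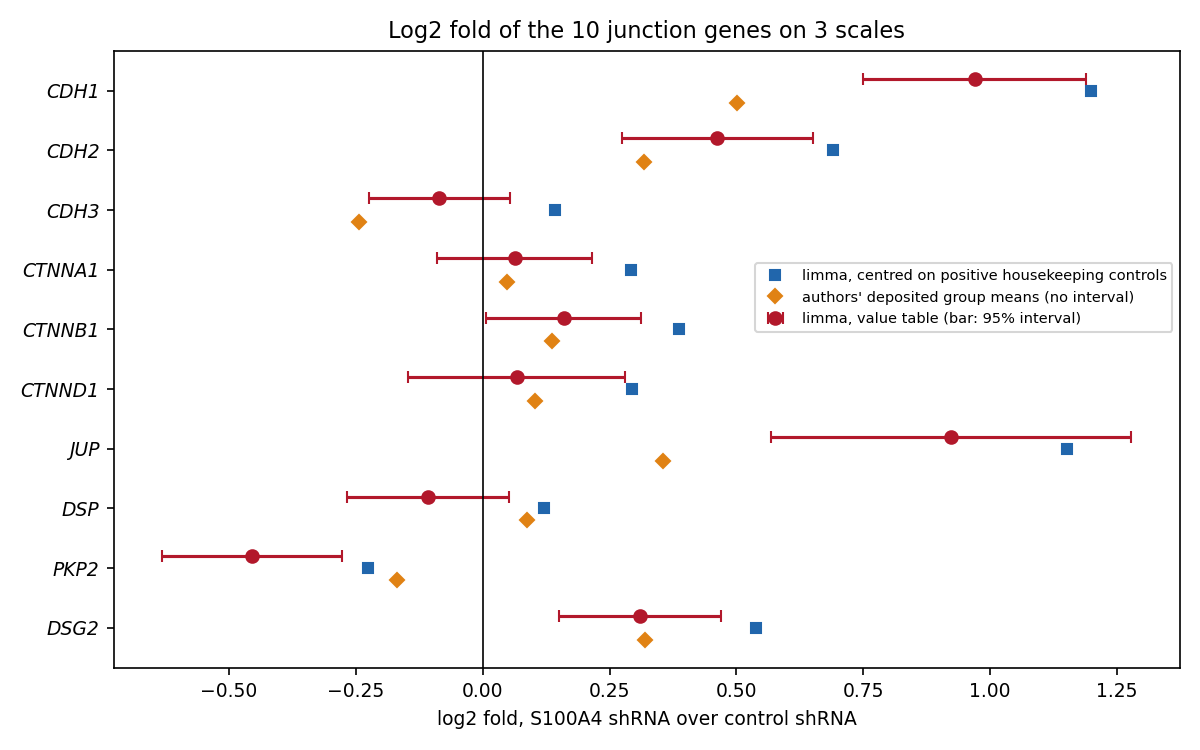
Log2 fold of S100A4 shRNA over control shRNA (horizontal axis) for the 10 genes, as fitted by limma on the deposited values with 95% intervals (red circles), after centring each array on the positive housekeeping controls (blue squares) and as the difference of the authors' deposited group means (orange diamonds). CDH1, CDH2, JUP and DSG2 lie above 0 and PKP2 below 0 on all 3 scales, while CDH3 and DSP change sign.

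The 10 genes were not evenly placed within a group of arrays. On S100A4 shRNA replicate 1 and on control replicate 1, 9 of the 10 members were above their group's mean, and on S100A4 shRNA replicate 2 only 1 was. S100A4 shRNA replicate 2 also had the lowest positive control median, 13.18. Without S100A4 shRNA replicate 2 the log2 folds of CDH1 and JUP were 1.06 and 1.03, and the 5 calls held. The part of these array differences in the results was not tested. The 3 genes outside the members whose signals went most closely with CDH1 over the 6 arrays, among 12561 candidates with a mean above the median of all genes, were SFMBT2 (Pearson r = 0.9991, log2 fold 0.64), EFCAB14 (r = 0.9991, 0.57) and RAB3B (r = 0.9990, 1.27). With only 6 arrays in 2 groups, 1047 of these candidates had an r above 0.95, and the arrays of a group share its treatment.

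The rest of the pathway was described with 6 further lists, which hold 100 measured genes: 11 rose, 3 fell and 86 were not called, with a median log2 fold of -0.012 against -0.034 for all genes. The 14 called of 100 stand beside 11.6% of all genes and 20.4% of the upper 50% by signal, and the 11 higher and 3 lower beside 6.08% and 5.49%. Centring on the positive controls made this 28 higher and 1 lower, and the authors' deposited table called 3 higher and 0 lower after adjustment. Of the called genes named below from these 6 lists, CDH17 and DKK1 kept their call in that table and the others lost theirs. Among the 19 other classical, type II and related cadherins 2 rose and 1 fell. CDH17, the liver-intestine cadherin, had log2 signals of 5.70 ± 0.11 with S100A4 shRNA and 4.69 ± 0.09 with control shRNA (SD, n = 3 each). Its log2 fold was 1.01, with a limma adjusted p of 0.000508, and it lay below the 95th percentile of the negative controls in both groups. CDH4, R-cadherin, rose by 0.87 (limma adjusted p = 0.00501). CDH19 fell by 0.40 at means of 3.86 with S100A4 shRNA and 4.26 with control shRNA, the first below the negative control medians and the second near them, and its call was lost after centring on the positive controls (log2 fold -0.17, limma adjusted p = 0.271). The other 16 cadherins were not called, and the list's median log2 fold was -0.055.

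Of 22 adherens junction partners 2 rose, 1 fell and 19 were not called (median -0.030). NECTIN2, a nectin that joins cells beside cadherins, had log2 signals of 10.35 ± 0.18 with S100A4 shRNA and 9.44 ± 0.07 with control shRNA (SD, n = 3 each) and rose by 0.91 (limma adjusted p = 0.00161). PDLIM1, a PDZ and LIM protein of the actin cytoskeleton, rose by 0.44, and VASP, an actin elongation factor, fell by 0.28. The call of PDLIM1 was lost without S100A4 shRNA replicate 1 or 3 or control replicate 2 or 3 (limma adjusted p up to 0.0718). The fit of all clusters ended it too (0.0818). The call of VASP was lost without any 1 of the 6 arrays (up to 0.109) and in the fit of all clusters (0.142). It was also lost after centring on the median of all genes (0.0517) or on the positive controls (log2 fold -0.055, 0.672). Of 12 other desmosome genes none was called by limma (median -0.053). Before adjustment 2 of the 12 had p under 0.05 in the same test, against 26.4% of all genes. The smallest p-values were those of the desmosomal cadherin DSC3 (log2 fold -0.26, limma adjusted p = 0.0667) and of PERP, a desmosomal p53 target (-0.40, 0.0805). PERP was called lower under 4 alternatives (limma adjusted p between 0.0181 with the replicate block and 0.04 without S100A4 shRNA replicate 1), and DSC3 under array weights (0.0445).

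Of 16 genes of beta-catenin turnover and its nuclear partners 0 were called by limma (median -0.0028). Before adjustment 3 of the 16 had a limma p under 0.05, against 26.4% of all genes. The 2 with the smallest p-values were BTRC, the ubiquitin ligase subunit that recognises beta-catenin, with 0.30 as its log2 fold (limma adjusted p = 0.0931), and APC, a scaffold of the destruction complex, at -0.20 (0.155, and with the opposite sign on the positive control scale and in the authors' deposited table). BTRC was called under 6 alternatives, with limma adjusted p between 0.00621 under positive control centring and 0.0491 under quantile normalization. Of 14 targets of beta-catenin and TCF 2 rose and 12 were not called (median -0.0052). Both, DKK1 (0.92, limma adjusted p = 0.000665) and RNF43 (0.50, 0.00286), encode inhibitors of Wnt signalling. RNF43 had means of 6.08 with S100A4 shRNA and 5.57 with control shRNA, below the 95th percentile of the negative controls. Of 18 genes of cadherin cleavage, endocytosis and trafficking 5 rose, 1 fell and 12 were not called (median 0.12). ADAM10, the sheddase that cuts the E-cadherin ectodomain, rose by 0.44. PTPRF, a receptor phosphatase found at junctions, rose by 0.78, and MDM2, a ubiquitin ligase best known for p53, fell by 0.64. The call of ADAM10 was lost without control replicate 3 (limma adjusted p = 0.0569) and in the fit of all clusters (0.0605).

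**Figure D3:**
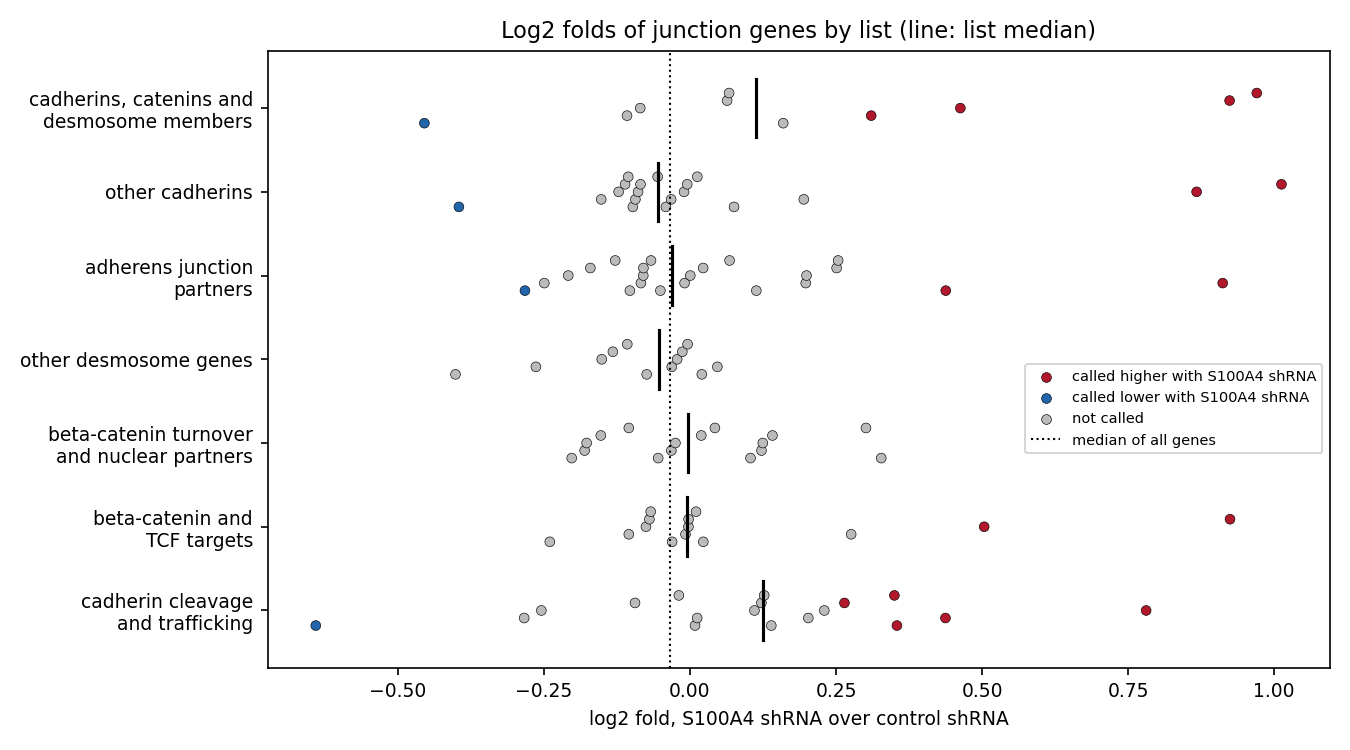
Log2 fold of S100A4 shRNA over control shRNA (horizontal axis) for each gene of the 10 members and of the 6 further junction lists, coloured by call, with the median of each list as a line and that of all genes as a dotted line. The other desmosome genes and the genes of beta-catenin turnover hold no call in this fit, and the list medians lie between -0.055 and 0.12.

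The identity of the cells was checked with marker lists. KRT8, KRT18 and KRT7, keratins of simple epithelia, and CDH1 were above the 95th percentile of the negative controls on all 6 arrays, while EPCAM and KRT19 were not. KRT8 (log2 fold -0.44, limma adjusted p = 0.0313) and KRT18 (-0.58, 0.00478) fell where CDH1 rose, and KRT19 (0.42, 0.0148) rose. Centring on the positive controls raises every log2 fold by 0.23, and whether these keratin calls hold on that scale was not looked up. None of the 5 surfactant and alveolar type II markers passed the 95th percentile of the negative controls. Among the other cell types, 0 of 10 endothelial and 0 of 10 fibroblast markers passed it on all arrays, 1 of 10 leukocyte markers did (CD68, a protein of lysosomes found in many cell types) and 1 of 9 keratinocyte and squamous markers did (SFN). The endothelial markers had array medians between 4.04 and 4.13 with S100A4 shRNA and between 4.10 and 4.19 with control shRNA, at the level of the negative controls. The called markers were ESAM (-0.45), COL1A1 (0.64), THY1 (-0.31), CD68 (1.09), CD2 (-0.25) and SFN (-0.45). Of these only CD68 and SFN were above the 95th percentile of the negative controls on all 6 arrays. After centring on the positive controls ESAM, THY1, CD2 and SFN lost their call.

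**Figure D4:**
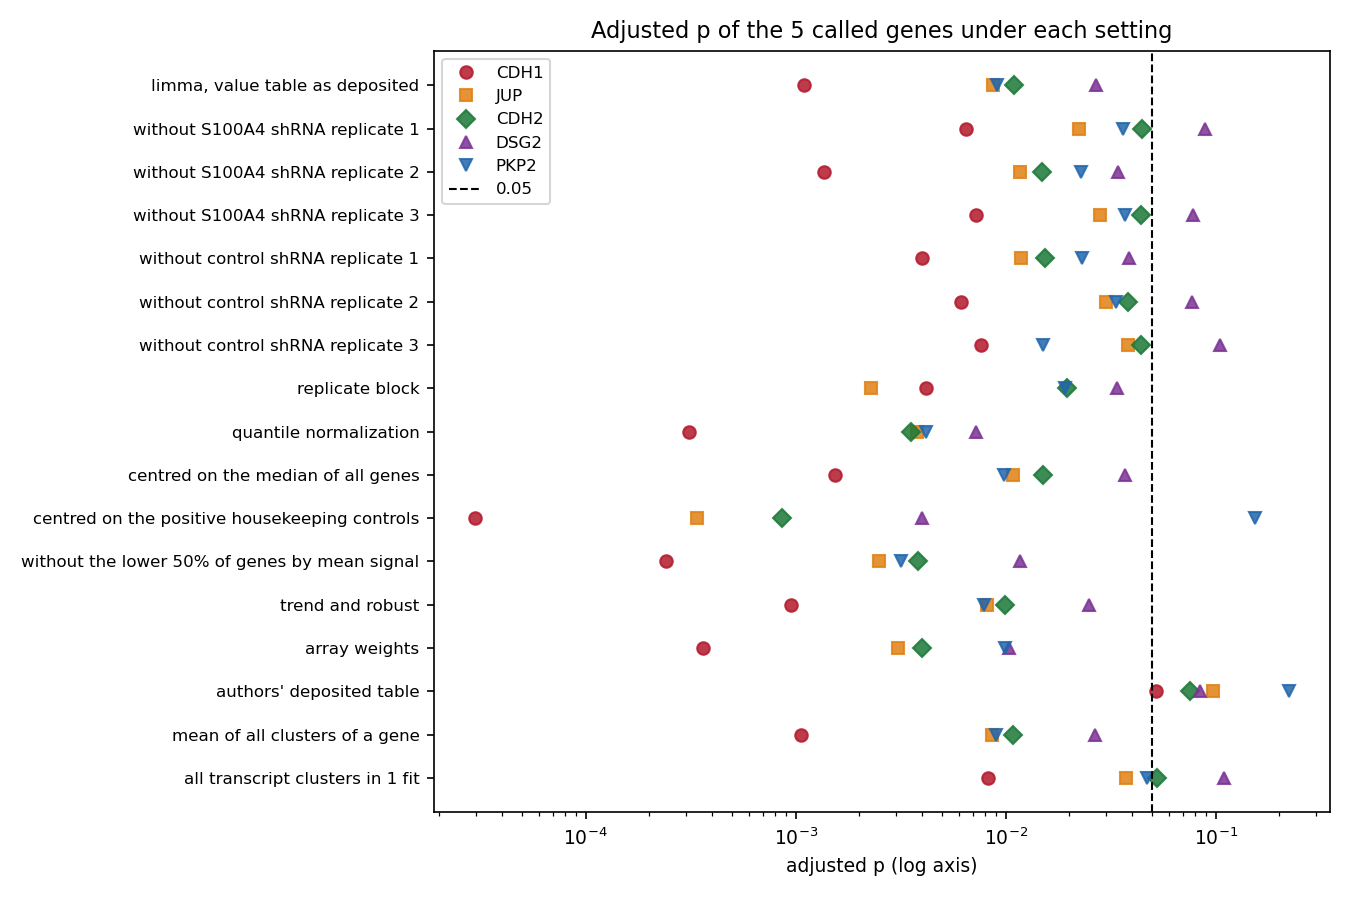
Adjusted p (horizontal log axis) of the 5 called members under each way of processing, with a dashed line at 0.05. CDH1 and JUP pass under every setting but the authors' deposited table, where their adjusted p was 0.0519 and 0.0975, and DSG2 crosses the line most often.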

How the data were processed

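RNA of 6 A549 cultures was measured on a whole-transcript array. The deposited value table holds the authors' log2 signal per feature and array. Which program summarised it is not stated in the labels. The submitters' processing notes name Partek 6.0. The deposited workbook holds log2 group means, a linear ratio and an unadjusted p-value per cluster, per the file headers. It gave the gene symbols and was an alternative. Its levels correlate with the value table's at r = 0.78 across genes, so it is another summarisation.

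Symbols were updated through RefSeq (GRCh38.p14, names and neighbours only), and the cluster with the highest mean was kept per gene, leaving 25141 genes without control probe sets or unnamed clusters. No filter on signal was set. The values were tested with limma 3.58.1 (lmFit, eBayes, R 4.3.3), two-sided. P-values were adjusted over all genes by Benjamini-Hochberg, with calls under 0.05. SE and 95% intervals are limma's, SDs are over 3 arrays, and SEs of differences between 2 members come from the within-array differences. The number of arrays limits the precision. No pair of arrays shared more than 0.0278% of its values.

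The members and lists were chosen with earlier results of these data known. Named are all members, S100A4, up to 4 called genes per list by smallest p (up to 2 where none was called), the 3 genes most like CDH1, and markers. The values of 1 gene that this rule names are not reported here. Alternatives were 6 fits each without 1 array, a replicate block, quantile normalization, 2 centrings, a filter on the lower 50% of genes by mean signal, trend and robust variance, array weights, the authors' deposited table, the mean of all clusters of a gene and a fit of all 67528 clusters.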

Additional observations from a re-analysis of the deposited data

How the results depend on the processing

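CDH1, CDH2, JUP, PKP2 and DSG2 kept their direction under all 16 alternatives. In the authors' deposited table all 5 lost their call, at log2 differences of 0.50 (CDH1), 0.32 (CDH2), 0.36 (JUP), -0.17 (PKP2) and 0.32 (DSG2), and CDH3 gained one (-0.24). There 0 members were higher and 1 lower, with 262 genes higher and 270 lower in all, and 3 higher and 0 lower in the other junction lists. The fit of all clusters, whose adjustment runs over more tests, ended the calls of CDH2 (0.46) and DSG2 (0.31), leaving 2 members higher, 641 genes higher, 539 lower and 6 list genes higher. Centring on the positive controls, which raises every log2 fold by 0.23, ended the calls of PKP2 (-0.23), CDH19, VASP, ESAM, THY1, CD2 and SFN, gave one to CTNNB1 (0.39) and BTRC and turned CDH3 (0.14), DSP (0.12) and APC (0.026). It gave 0 members lower, 4838 genes higher and 315 lower, and 28 list genes higher and 1 lower. DSP (0.086) and APC (0.025) also turned in the authors' deposited table. Array weights gave 17 list genes higher, and 8 and 5 were lower after quantile normalization and the filter on signal. The causes of the other changes were not tested.

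Without 1 array at a time, log2 folds ran from 0.92 to 1.06 for CDH1, 0.40 to 0.52 for CDH2, 0.78 to 1.05 for JUP, -0.52 to -0.39 for PKP2, 0.27 to 0.35 for DSG2 (call lost in 4 of 6) and -0.0022 to 0.14 for CTNND1, which turned without control replicate 2. Members higher numbered 3 to 4, all genes higher 762 to 1558 and lower 777 to 1025, and list genes higher 7 to 13 and lower 2 to 3. The fewest genes, 1539, were called without control replicate 3, against 2910 with all arrays.

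Same-numbered arrays deviated together at r = 0.084, 0.17 and -0.0087, and 3 of 6 arrays went best with their own number, so the numbers were not taken as pairs. The replicate block moved no call of a member (CDH1 adjusted p = 0.00418, DSG2 0.0339) and gave 1578 genes higher and 1305 lower. It ended the call of CD2 and gave calls to PERP and BTRC, and changed no other call among the members, the genes named from the junction lists and the called markers ESAM, COL1A1, THY1, CD68 and SFN. KRT8, KRT18, KRT19, RIOK1 and the genes most like CDH1 were fitted with all genes, but their values under the alternatives were not looked up. Leaving out 1 array ended the call of THY1 in 4, CD2 in 5 and SFN in 5 of the 6 fits. The number of arrays limits all values. Signals below the 95th percentile of the negative controls, among them those of CDH3, CDH17, CDH19, RNF43, DSC3 and the absent markers, are to be read with caution. PKP2 passed that percentile on only 1 of the 3 S100A4 shRNA arrays. Of these, CDH17 kept its call under every alternative that tested it, and RNF43 under all but the authors' deposited table.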

Other observations

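The nearest measured protein-coding genes on either side of the 10 members were not called, except RIOK1 and CDH1 itself as the neighbour of CDH3. TANGO6, on the far side of CDH1 from CDH3, had -0.064 as its log2 fold (limma adjusted p = 0.699), and DSG3 and TTR, the neighbours of DSG2 on chromosome 18, had -0.013 and -0.17. HAP1 and P3H4, beside JUP on chromosome 17, had -0.0082 and -0.012. RIOK1, a kinase of ribosome assembly beside DSP on chromosome 6, was called, with log2 means of 8.56 on the S100A4 shRNA arrays and 9.17 on the control shRNA arrays and a log2 difference of -0.61 (limma adjusted p = 0.00122). These neighbours were looked up after the values of the members were seen.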
